A study of Mus musculus with 9 samples.

Results

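Il21 and 6 regulators of follicular helper T cells, Bcl6, Cxcr5, Icos, Maf, Sh2d1a and Batf, were followed in activated mouse CD4 T cells that lacked CD69, had CD69 cross-linked, or were left with neither change. These 7 genes were chosen by name, with earlier results of these data known. Each was represented by 1 probe set with a single gene symbol, out of 19938 genes with such a probe set. All cells were CD4-enriched T cells from spleens of C57BL/6J mice, cultured for 72 h with anti-CD3/anti-CD28 beads at 10 cells per bead. The CD69-/- group carried a deletion of the early activation antigen CD69 (3 arrays). The CD69-activated group was wild type and received an anti-CD69 antibody after 24 h and a secondary cross-linking antibody after 48 h, each diluted 1 in 200 (3 arrays). The wild-type group received the beads alone (3 arrays). The labels call the 3 arrays of each group biological replicates. They describe no isotype or secondary antibody control, give no ages, and do not say how many mice each replicate came from. Values are log2 expression values as deposited, without a detection call, and the small number of arrays limits their precision.

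Follicular helper T cells are the CD4 T cells that enter B cell follicles and help B cells to form germinal centres. They secrete interleukin 21, a cytokine of the common gamma chain family that drives B cell proliferation and plasma cell formation and also acts on T cells. CXCR5 brings them to the chemokine CXCL13, ICOS receives costimulation from ICOS ligand, and the adaptor SAP, encoded by Sh2d1a, relays signals of SLAM family receptors that hold T and B cells together. BCL6 is the repressor that defines the lineage and is opposed by BLIMP-1, the product of Prdm1, while c-MAF and BATF are activators that other helper subsets use as well. BCL6 and CXCR5 are also abundant in B cells.

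Promoters of Il21, Batf and Bcl6 are shown because these were the members with an entry in the promoter table used here. Among them, Il21 and Batf differed in every comparison and Bcl6 passed in none. The sequences come from RefSeq on GRCm38.p6 and run from 250 bases before to 50 bases after the gene start. Of the 7 genes 3 matched that table. Capitals mark matches, on either strand, to 5 motifs: NFAT (GGAAA), the MAF core (TGCTGA), STAT (TTCNNNGAA), AP-1 (TGANTCA) and IRF (GAAA, any pair of bases, GAAA).
Il21 (chr3:37232587-37232886, minus strand): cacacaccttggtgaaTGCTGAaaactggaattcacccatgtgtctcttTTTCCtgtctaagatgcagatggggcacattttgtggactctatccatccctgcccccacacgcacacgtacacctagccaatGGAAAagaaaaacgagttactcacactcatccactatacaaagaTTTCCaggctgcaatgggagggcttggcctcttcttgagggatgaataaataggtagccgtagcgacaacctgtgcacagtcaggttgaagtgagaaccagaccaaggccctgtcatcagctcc
Batf (chr12:85686470-85686769, plus strand): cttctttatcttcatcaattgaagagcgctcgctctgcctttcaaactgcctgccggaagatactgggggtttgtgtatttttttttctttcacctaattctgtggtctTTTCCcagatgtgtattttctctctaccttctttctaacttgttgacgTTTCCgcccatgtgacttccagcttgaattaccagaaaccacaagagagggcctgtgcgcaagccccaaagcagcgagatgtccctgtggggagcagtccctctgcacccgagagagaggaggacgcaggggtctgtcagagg
Bcl6, first start (chr16:23988803-23989102, minus strand): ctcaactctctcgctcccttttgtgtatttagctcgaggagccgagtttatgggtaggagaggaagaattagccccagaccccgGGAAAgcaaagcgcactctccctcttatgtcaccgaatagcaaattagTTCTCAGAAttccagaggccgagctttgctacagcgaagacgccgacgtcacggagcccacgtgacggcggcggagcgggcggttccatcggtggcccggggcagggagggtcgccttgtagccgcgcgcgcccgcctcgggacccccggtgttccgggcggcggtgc
Bcl6, second start (chr16:23981234-23981533, minus strand): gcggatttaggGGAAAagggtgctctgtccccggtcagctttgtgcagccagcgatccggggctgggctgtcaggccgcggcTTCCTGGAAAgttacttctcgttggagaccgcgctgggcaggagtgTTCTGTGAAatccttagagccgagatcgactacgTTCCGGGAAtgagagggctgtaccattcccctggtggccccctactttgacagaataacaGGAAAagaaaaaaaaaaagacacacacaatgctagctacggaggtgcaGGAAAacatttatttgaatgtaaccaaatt

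The Il21 promoter held 3 NFAT matches, which began 201, 118 and 74 bases before the start, and 1 MAF core at 234 bases before it. The Batf promoter held 2 NFAT matches, 141 and 93 bases before the start. The second Bcl6 promoter held 4 NFAT and 3 STAT matches, and its NFAT match at -163 overlapped the STAT match at -168. The first Bcl6 promoter held 1 NFAT and 1 STAT match. No window held an AP-1 or IRF match. Among 27025 promoters of the same length, 61.3% held the NFAT letters, 19.1% the MAF core, 8.47% STAT, 7.93% AP-1 and 3.49% IRF, so the NFAT letters are common by themselves.

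Cd69 and sex-linked genes set the frame for every comparison with CD69-/- cells. Cd69 averaged 9.59 in CD69-/- arrays, 11.79 in CD69-activated arrays and 12.17 in wild-type arrays. Xist, the X-inactivation transcript, averaged 6.01 in CD69-/- arrays, 12.94 in CD69-activated arrays and 12.59 in wild-type arrays, and the Y-linked Eif2s3y averaged 9.78, 4.35 and 4.33 in the same groups. CD69-/- arrays had a male and the other arrays a female pattern, so genotype and sex cannot be told apart. The T cell identity of the samples was borne by Cd3e (means of 12.88 in CD69-/-, 12.37 in CD69-activated and 12.50 in wild-type arrays) and Cd4 (12.35, 12.06 and 11.98), but the B cell gene Ms4a1, which encodes CD20, was also well represented (12.32, 12.70 and 12.86). The mean of 3 CD8 T cell markers was also high, at 11.50 to 11.56 in CD69-/-, 10.58 to 10.70 in CD69-activated and 11.23 to 11.27 in wild-type arrays. In such mixed samples fewer cells of a type and less RNA per cell cannot be told apart.

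Il21 was highest without CD69 and lowest after CD69 cross-linking. Its log2 level was 10.39, 10.22 and 10.28 in CD69-/- arrays, 6.74, 7.18 and 7.13 in CD69-activated arrays, and 8.48, 8.50 and 8.48 in wild-type arrays. The 3 groups did not overlap, and the distance between them was many times the spread within them. Wild-type replicates 1 and 3 had exactly the same deposited value, so the wild-type spread is no full measure of replicate error. In CD69-/- cells Il21 was 3.51-fold above wild type (log2 difference 1.81, SE 0.095, adjusted p = 8.23e-07, n = 3 per group, limma), the 9th largest absolute difference among all genes tested. In CD69-activated cells it was 2.76-fold below wild type (-1.46, SE 0.095, adjusted p = 2.19e-06), the 16th largest. Between CD69-activated and CD69-/- cells the gap was 9.69-fold (-3.28, SE 0.095, adjusted p = 2.09e-09), the 5th largest. The Il21 values in CD69-activated arrays lay below the median of all probe sets on the same arrays (7.52 to 7.56). With no detection call, how near they were to background was not examined, so the folds against this group hold for the deposited values alone. Both comparisons with wild type share the wild-type arrays. All 3 differences passed whichever single array was left out, with ranges of 1.77 to 1.85, -1.55 to -1.33 and -3.36 to -3.14.

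**Figure D1:**
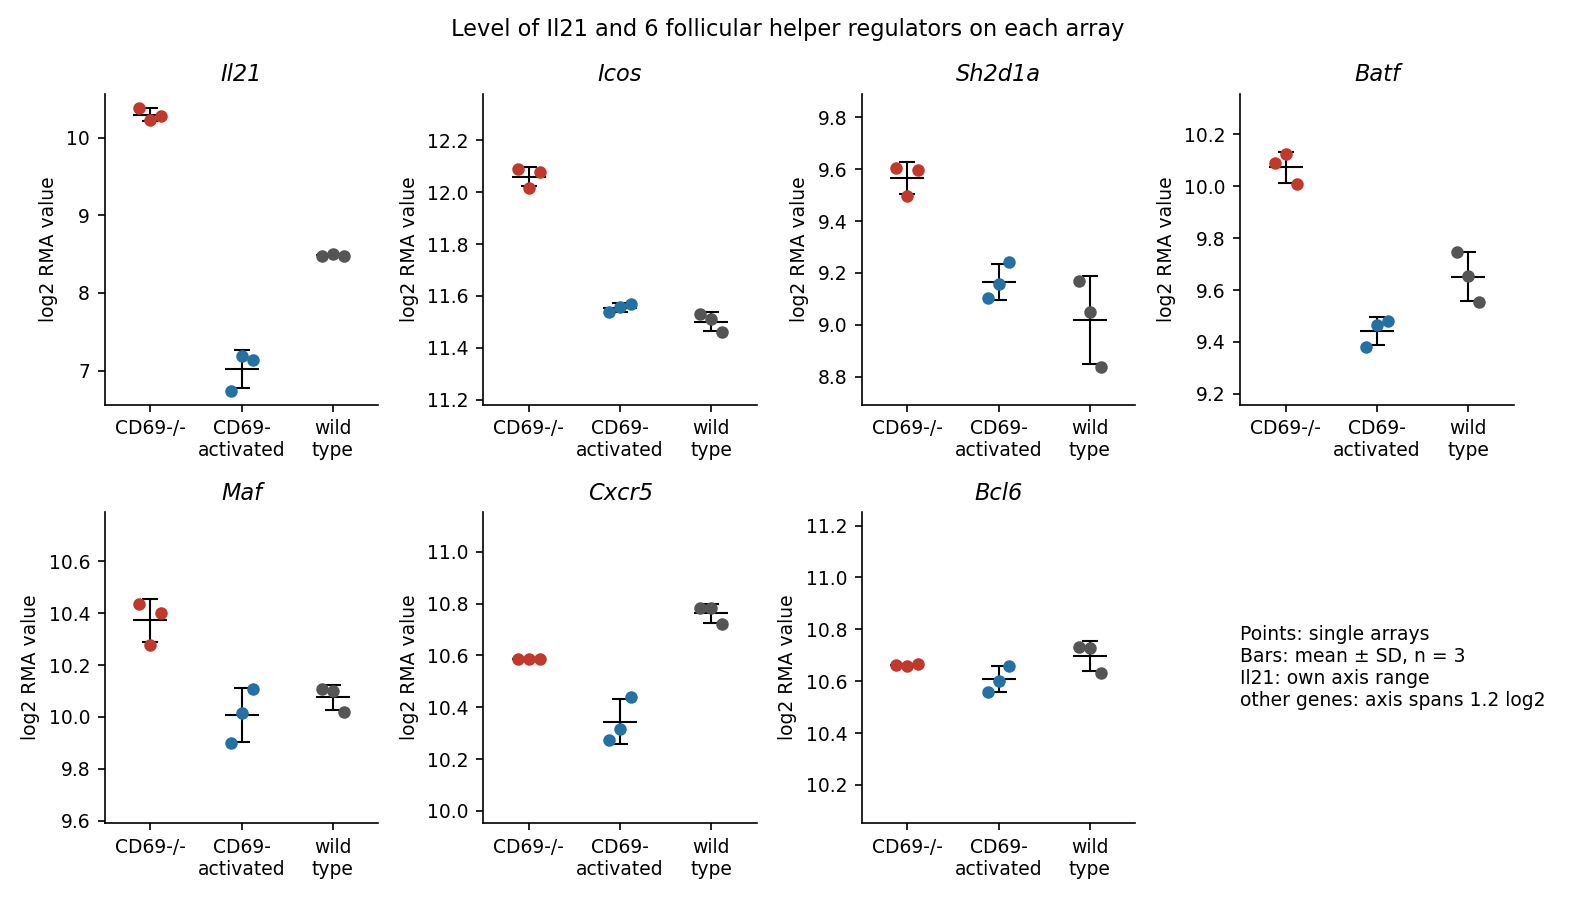
Log2 RMA value of each of the 7 genes on each array (points), with mean ± SD bars, for CD69-/-, CD69-activated and wild-type cells (n = 3 each). Il21 has its own axis range, and the other panels all span the same range. The Il21 groups lie far apart, Icos, Sh2d1a, Batf and Maf are highest in CD69-/- cells, and Cxcr5 is highest in wild type.

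Icos, Sh2d1a and Maf were higher in CD69-/- cells and did not pass between CD69-activated and wild-type cells. Icos, encoding the costimulatory receptor, measured 12.09, 12.02 and 12.08 in CD69-/- arrays, 11.54, 11.56 and 11.57 in CD69-activated arrays and 11.53, 11.51 and 11.46 in wild-type arrays. All CD69-/- arrays lay above the other 6, which sat close together. The CD69-/- difference from wild type was 0.56 (SE 0.037, adjusted p = 3.00e-06). The CD69-activated difference was 0.054 (95% interval -0.027 to 0.13, adjusted p = 0.326), although these arrays lay just above all wild-type arrays.

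Sh2d1a, encoding SAP, measured 9.60, 9.50 and 9.60 in CD69-/- arrays, 9.10, 9.16 and 9.24 in CD69-activated arrays and 9.17, 9.05 and 8.84 in wild-type arrays. The CD69-/- arrays stood apart, while the other groups overlapped. It rose by 0.55 in CD69-/- cells (SE 0.074, adjusted p = 0.000419), and the CD69-activated difference was 0.15 (95% interval -0.016 to 0.31, adjusted p = 0.183). The last comparison passed without wild-type replicate 1 (0.22, adjusted p = 0.0484). Sh2d1a lies on the X chromosome, and of 739 measured X-linked genes 46 were called higher and 41 lower in CD69-/- cells (6.22% and 5.55%, median -0.013). Over all genes the shares were 8.36% and 6.78%. Such counts cannot tell genotype and sex apart for Sh2d1a.

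Among the transcription factors, Batf ran in the same order as Il21. Batf, an AP-1 family factor that acts with IRF4, measured 10.09, 10.12 and 10.01 in CD69-/- arrays, 9.38, 9.47 and 9.48 in CD69-activated arrays and 9.75, 9.65 and 9.56 in wild-type arrays. No groups overlapped. It was higher in CD69-/- cells by 0.42 (SE 0.053, adjusted p = 0.000250) and lower in CD69-activated cells by 0.21 (difference -0.21, SE 0.053, adjusted p = 0.0154) than in wild type. The second call was lost without wild-type replicate 1 (-0.16, adjusted p = 0.0624) or CD69-activated replicate 1 (-0.18, adjusted p = 0.0549).

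Maf, which encodes the Il21 and Il4 activator c-MAF, measured 10.44, 10.28 and 10.40 in CD69-/- arrays, 9.90, 10.02 and 10.11 in CD69-activated arrays and 10.11, 10.10 and 10.02 in wild-type arrays. CD69-/- arrays lay above the rest and the other groups overlapped. The difference from wild type was 0.30 in CD69-/- cells (SE 0.059, adjusted p = 0.00515) and -0.067 in CD69-activated cells (95% interval -0.20 to 0.063, adjusted p = 0.457).

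Bcl6, the lineage-defining repressor, did not pass in any of the comparisons. It measured 10.66, 10.66 and 10.67 in CD69-/- arrays, 10.56, 10.60 and 10.66 in CD69-activated arrays and 10.73, 10.73 and 10.63 in wild-type arrays, and the groups overlapped. Its difference from wild type was -0.034 in CD69-/- cells (95% interval -0.12 to 0.056, adjusted p = 0.654) and -0.091 in CD69-activated cells (-0.18 to -0.00015, adjusted p = 0.141). As deposited, the intervals therefore reach no further than a small part of the Il21 differences. They describe mixed samples, in which B cell markers were lower and T cell markers higher in CD69-/- cells (medians -0.47 and 0.42). For Bcl6, and for Cxcr5 below, they therefore set no limit on a change within T cells.

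Cxcr5, the follicle homing receptor, was lower than wild type in both other groups. It was listed at 10.59 on all 3 CD69-/- arrays, at 10.27, 10.32 and 10.44 on CD69-activated arrays and at 10.78, 10.78 and 10.72 on wild-type arrays, without overlap between groups. It fell by 0.42 in CD69-activated cells (SE 0.045, adjusted p = 8.12e-05). The CD69-/- difference was -0.18 (SE 0.045, adjusted p = 0.0234), and that call was lost without wild-type replicate 1 or 2 or any one CD69-/- array (adjusted p = 0.0655 to 0.0817) and when all probe sets were tested (0.0589). The SD of 0 among CD69-/- arrays is no measure of replicate error: 10272 genes (51.5%) had exactly the same deposited value on at least 2 of the 9 arrays, 4 of the 7 genes here among them, and 313 genes had 1 value on all CD69-/- arrays.

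In all, 5 of the 7 genes were called higher and 1 lower in CD69-/- cells than in wild type, beside 8.36% of all genes higher and 6.78% lower (15.1% in either direction). None was called higher and 3 were called lower in CD69-activated cells, beside 10.1% higher and 13.7% lower of all genes (23.8% in either direction). Between CD69-activated and CD69-/- cells 6 were lower and none higher, beside 21.0% and 21.6% of all genes (42.6% in either direction). As the 7 genes were chosen with earlier results of these data known, these shares do not test the set. The arrays of the 2 groups did not overlap for 6 of the 7 genes between CD69-/- and wild type (33.2% of all genes), for 4 between CD69-activated and wild type (36.0%) and for 6 between CD69-activated and CD69-/- (51.5%). The counts over all genes depended on the scaling: 1667 higher and 1351 lower in CD69-/- cells became 2555 and 1071 when array medians were centred, which left the counts of the 7 genes as they were. Centring each array on its T cell markers changed those counts as well, to 2 higher and 3 lower in CD69-/- than in wild-type cells and 2 higher and 2 lower in CD69-activated than in CD69-/- cells. The median difference over the 7 genes was 0.42, -0.091 and -0.40 in these comparisons, against -0.0091, 0.017 and 0.035 over all genes. Past a minimum of 1.5-fold, Il21 alone remained among the calls against wild type (1.15% of all genes in CD69-/- and 1.58% in CD69-activated cells), and Il21 and Batf between CD69-activated and CD69-/- cells (4.02%).

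**Figure D2:**
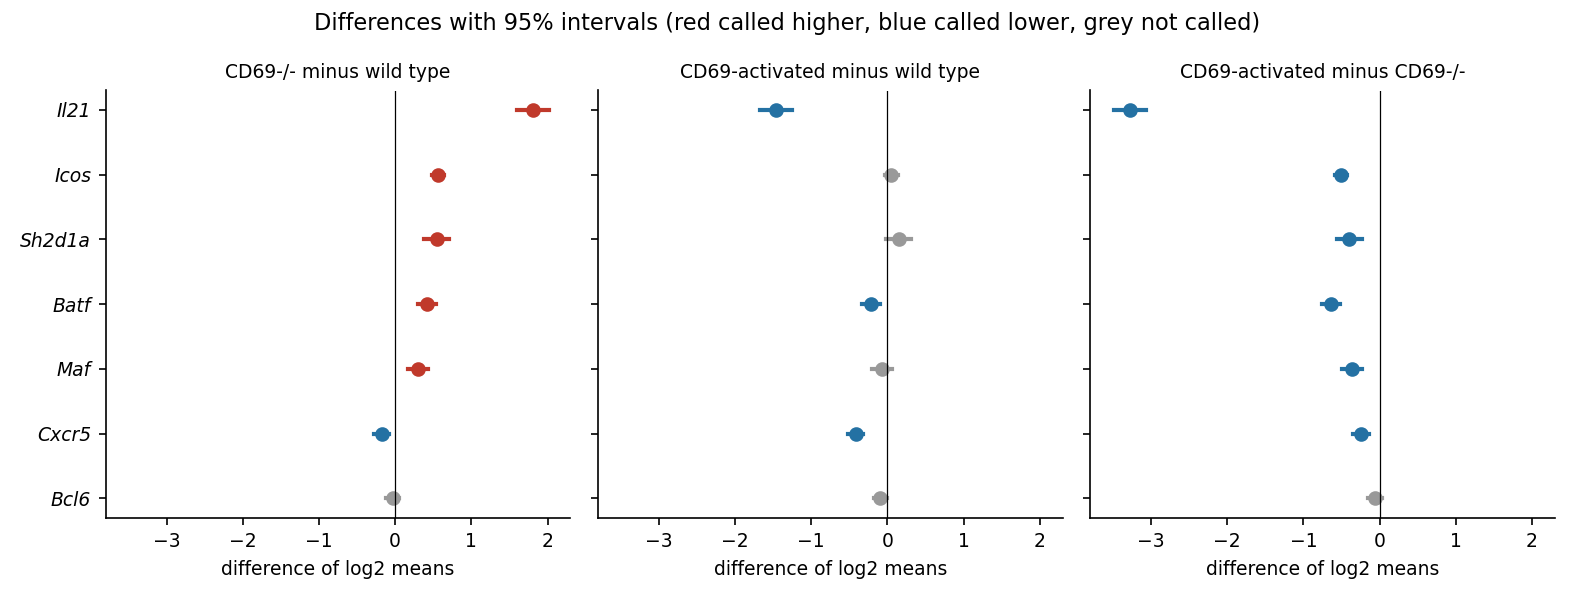
Difference of log2 means for each gene in each comparison (points) with its 95% interval from the limma fit (lines). Il21 spans 1.81 to -3.28 across the panels, and no Bcl6 difference passes.

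Pan-T cell markers moved with most of these genes in CD69-/- cells. All 12 measured markers were called higher (median 0.42), and their mean level was 11.93 to 11.96 in CD69-/- arrays, 11.46 to 11.48 in CD69-activated arrays and 11.46 to 11.53 in wild-type arrays. All 17 B cell markers were called lower in CD69-/- cells (median -0.47), with mean levels of 11.37 to 11.44, 11.84 to 11.91 and 11.91 to 11.95 in the same groups. Of 16 myeloid and dendritic cell markers 13 fell and none rose (median -0.38). Germinal centre B cell markers had 1 of 5 higher and none lower.

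When every array was centred on its T cell markers, which shifted the median difference of all genes by -0.44 in CD69-/- cells, Il21 remained 2.58-fold above wild type (1.37, adjusted p = 2.47e-07). Icos was then at 0.12 (adjusted p = 0.00608), Sh2d1a at 0.10 (0.135) and Batf at -0.021 (0.683). Maf turned to -0.15 (0.0186), Cxcr5 was at -0.62 (3.57e-07) and Bcl6 at -0.48 (4.87e-07). On this scale 102 genes were called higher and 19458 lower in CD69-/- than in wild-type cells, and 18359 higher and 509 lower in CD69-activated than in CD69-/- cells, so a lower value there says only that a gene did not rise as the T cell markers did.

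The same scaling moved little in CD69-activated cells, where T cell markers had a median of -0.020 (1 higher and 3 lower) and B cell markers -0.072 (2 higher and 3 lower). Il21 was at -1.44 (adjusted p = 1.08e-06), Cxcr5 at -0.39 (7.89e-05) and Batf at -0.18 (0.0186), while 2966 genes in all were called higher and 2402 lower, against 2015 and 2727 as deposited. All 19 cell cycle genes were called lower in CD69-activated cells (median -0.80), their mean level being 9.16 to 9.23 in CD69-activated and 9.96 to 10.05 in wild-type arrays. In CD69-/- cells 1 cell cycle gene was called higher and 1 lower (median 0.048). The mean level of the 3 CD8 T cell markers ran in the order of Il21, but not every marker did. In CD69-/- cells 2 of the 3 were called higher and 1 lower (median 0.43), and in CD69-activated cells 3 of 3 were lower (median -0.54). Their mean level was 11.50 to 11.56 in CD69-/- arrays, 10.58 to 10.70 in CD69-activated arrays and 11.23 to 11.27 in wild-type arrays. Of 8 NK cell markers 3 were higher and 3 lower in CD69-/- cells (median 0.081), and none higher and 6 lower in CD69-activated cells (median -0.54). Of 8 plasma cell markers 2 were higher and 4 lower in CD69-/- cells (median -0.16), and none higher and 5 lower in CD69-activated cells (median -0.19). The part of these shifts in the Il21 differences was not tested.

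**Figure D3:**
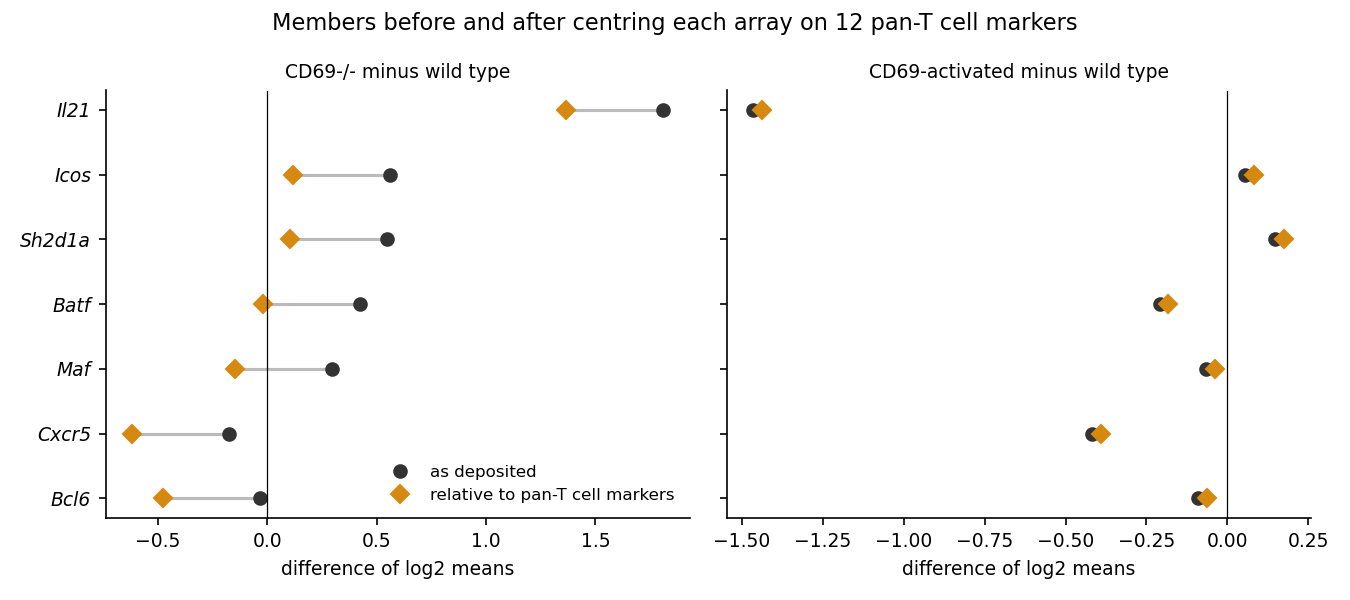
Difference from wild type of each gene as deposited (circles) and after each array was centred on the mean of 12 pan-T cell markers (diamonds), in log2. In CD69-/- cells all 7 differences move down and Il21 stays at 1.37, while in CD69-activated cells the values hardly move.

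Other genes of the follicular helper programme split in CD69-/- cells. The list counts here and below stand beside 8.36% of all genes called higher and 6.78% lower in CD69-/- cells. In CD69-activated cells these shares were 10.1% and 13.7%. Some list counts are small, and no list was tested as a set. Of 17 measured surface and secreted genes 6 rose and 2 fell (median 0.13), which turned to 2 and 12 on the T cell marker scale. Cd40lg, encoding the CD40 ligand with which T cells help B cells, was at 0.57 (adjusted p = 1.49e-05) and the receptor genes Tnfrsf4 (OX40) and Tnfrsf18 (GITR) at 0.52 and 0.49. In CD69-activated cells 2 rose and 4 fell, with Cd200, an inhibitory ligand of follicular helper cells, at -0.57 (adjusted p = 2.68e-05, against 0.045 in CD69-/- cells), Tnfrsf4 at -0.27 and Cd40lg at 0.16. Of 17 transcription factors 6 rose and 3 fell in CD69-/- cells (median 0.0022; none and 15 on the T cell marker scale), with Irf4 at 0.50, Nfatc2, a calcium-regulated factor, at 0.46, and Tox at 0.31. In CD69-activated cells 2 rose and 4 fell, led by Egr2, a T cell receptor induced factor, at -1.09 (adjusted p = 1.22e-07, against 0.20 in CD69-/- cells) and Irf4 at -0.44 (adjusted p = 9.28e-06).

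Among genes that oppose the programme, more were called higher than lower in CD69-/- cells, and more lower than higher in CD69-activated cells. The first of these turned round on the T cell marker scale. Of 19 antagonists 10 rose and 2 fell in CD69-/- cells (median 0.23; none and 17 on the T cell marker scale), and 2 rose and 10 fell in CD69-activated cells (median -0.16). Prdm1, encoding BLIMP-1, was at 0.26 in CD69-/- cells (adjusted p = 0.00564) and -0.16 in CD69-activated cells (adjusted p = 0.0426). The IL-2 receptor chains Il2ra and Il2rb, which pass on STAT5 signals, were at 0.31 and 0.52 in CD69-/- cells and at -0.76 and -0.45 in CD69-activated cells. Gata3, the Th2 factor, was at 0.41 and -0.33. On the T cell marker scale Prdm1, Il2ra and Gata3 turned to -0.18, -0.13 and -0.036 in CD69-/- cells, while Il2rb kept its sign. Klf2, which restrains the programme and keeps T cells circulating, was an exception in CD69-/- cells, at -0.54 (adjusted p = 9.66e-06), and was at -0.20 in CD69-activated cells.

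The receptor side of interleukin 21 changed less than the cytokine. Il21r, which encodes the specific receptor chain, measured 12.31, 12.30 and 12.23 in CD69-/- arrays, 11.99, 12.02 and 12.06 in CD69-activated arrays and 12.13, 12.18 and 12.16 in wild-type arrays. It ran in the same order as Il21, with differences from wild type of 0.12 in CD69-/- (adjusted p = 0.0479) and -0.13 in CD69-activated cells (adjusted p = 0.0243), and turned to -0.32 in CD69-/- cells on the T cell marker scale. Of the 19 genes of IL-21 and IL-6 reception and signalling 10 rose and none fell in CD69-/- cells (median 0.18; 2 and 15 on the T cell marker scale), and 2 rose and 8 fell in CD69-activated cells (median -0.048). The IL-12 receptor genes Il12rb2 and Il12rb1 were at 0.59 and 0.52 in CD69-/- cells and at -0.40 and -0.23 in CD69-activated cells. Il6ra, whose ligand promotes Il21 expression, was higher than wild type in both, at 0.40 and 0.26. The feedback inhibitor Socs1 was at -0.0034 in CD69-/- cells and fell by 0.38 in CD69-activated cells.

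Partners of the other regulators did not share one direction. Of 12 BATF partners and AP-1 genes 6 rose and 1 fell in CD69-/- cells (none and 9 on the T cell marker scale), and 1 rose and 5 fell in CD69-activated cells. Irf4 (above), Fosl1 (0.22 in CD69-/- and -0.43 in CD69-activated cells) and Fosl2 (0.50, and -0.16 with adjusted p = 0.0549) were among them. Atf3, a stress-induced relative, was at 0.010 (adjusted p = 0.933) and -0.40 in the same comparisons. Of 14 costimulation genes 3 rose and 2 fell in each, with 2 and 11 on the T cell marker scale in CD69-/- cells. Cd28 was at 0.62 in CD69-/- and 0.0031 in CD69-activated cells, Ctla4, its inhibitory relative, was at 0.59 and 0.30, and Cd80, a ligand of both, at -0.50 in each. Prkcq, the kinase PKC theta of T cell receptor and CD28 signalling, was at 0.39 and 0.093 (the second with adjusted p = 0.0804). Icosl, the ligand of ICOS, was at -0.33 in CD69-/- cells (adjusted p = 0.000281) and -0.023 in CD69-activated cells (adjusted p = 0.752). In the same CD69-/- comparison B cell markers had a median of -0.47 and myeloid and dendritic cell markers -0.38. The part of such cells in the falls of Cd80 and Icosl was not tested.

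Of 14 SLAM receptors and SAP adaptors 1 rose and 5 fell in CD69-/- cells (none and 14 on the T cell marker scale), with Slamf8 at -0.77 and the SAP-binding kinase gene Fyn at 0.28. In CD69-activated cells 2 rose and 4 fell, with Slamf8 at -0.75 and Slamf1, which encodes a receptor that SAP binds, at -0.42 (0.043 in CD69-/- cells, adjusted p = 0.523). Slamf7 fell in both, by 0.16 and 0.24. MAF family genes with their partners Bach1 and Bach2 had 1 of 7 lower in CD69-/- and 3 of 7 higher in CD69-activated cells. Bach2, a repressor that pairs with small MAF proteins, was called in both, at -0.16 and 0.22. The other 2 that rose in CD69-activated cells were Bach1 at 0.19, also a partner of small MAF proteins, and the small MAF gene Mafg at 0.17. Both were close to wild type in CD69-/- cells (0.0061 and 0.053, adjusted p = 0.959 and 0.532). Among 9 genes of the CXCR5 ligand and of chemokine and other migration receptors, 2 fell in CD69-/- cells. These were Ccr6, by 0.77, and S1pr1, not a chemokine receptor and also listed with the antagonists, by 0.24. In CD69-activated cells 1 rose, Ackr3 at 0.18. All 7 genes of the MAF and BACH list and all 9 of the list with Ccr6 were called lower in CD69-/- cells on the T cell marker scale. Some genes stand in more than 1 of these lists. The part of the lower B cell and myeloid markers in the CD69-/- falls of Slamf8 and Ccr6 was not tested either.

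**Figure D4:**
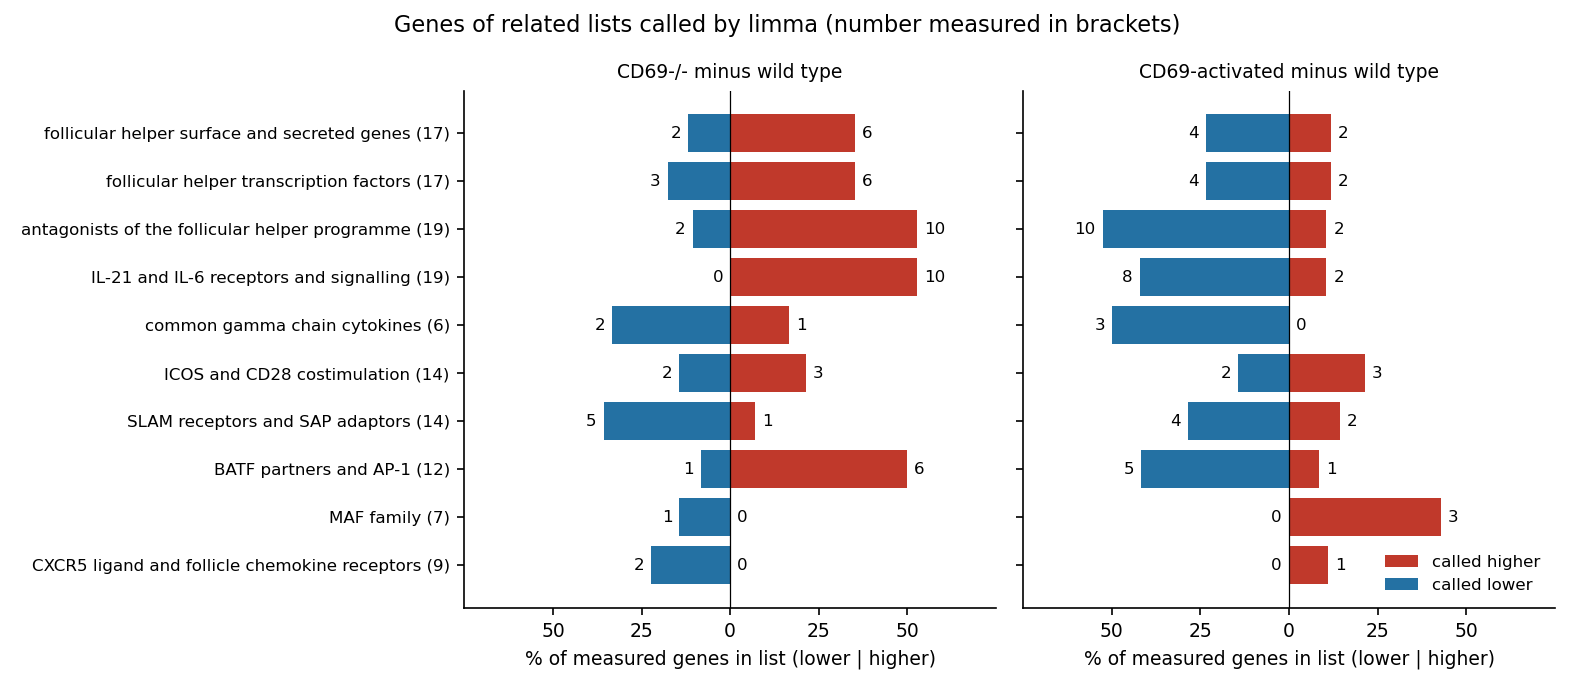
Share of the measured genes of each list that limma called higher (right of 0) or lower (left of 0) than wild type, with the number of genes at each bar. For CD69-/- cells 10 of 19 antagonists and 10 of 19 IL-21 and IL-6 signalling genes are called higher, and for CD69-activated cells 10 and 8 of them are called lower. On the T cell marker scale, which is not drawn, 17 and 15 of them are called lower in CD69-/- cells. Over all genes 8.36% are called higher and 6.78% lower in CD69-/- cells, and 10.1% and 13.7% in CD69-activated cells.

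Il2, the neighbour of Il21 on chromosome 3 and a member of the same cytokine family, followed the same order. It measured 8.87, 8.69 and 8.91 in CD69-/- arrays, 7.34, 7.11 and 7.11 in CD69-activated arrays and 8.23, 8.31 and 8.10 in wild-type arrays, with no overlap. It was at 0.61 in CD69-/- (adjusted p = 0.000260) and -1.03 in CD69-activated cells (adjusted p = 6.67e-06). On the other side, Cetn4, a centrin gene, measured 9.19, 9.07 and 9.16 in CD69-/- arrays, 8.38, 8.52 and 8.58 in CD69-activated arrays and 8.48, 8.61 and 8.59 in wild-type arrays. Only its CD69-/- arrays stood apart (0.58, adjusted p = 4.39e-05), as did those of Bbs12, a chaperonin-like gene of cilia (0.35, adjusted p = 0.00555). Neither passed in CD69-activated cells (-0.068 and 0.061). The T cell marker scale shifted the median difference of all genes by -0.44 in CD69-/- cells, and Bbs12 turned to -0.094 on it. Adad1, on the far side of Il2, did not pass in CD69-/- cells (-0.054, adjusted p = 0.557) or in CD69-activated cells (0.022). Among the other common gamma chain cytokines Il9 was at -0.98 in CD69-/- and -1.09 in CD69-activated cells, and Il15 at -0.19 and -0.64. Their list, with Il2, held 6 measured genes. In CD69-/- cells 1 rose and 2 fell (1 and 5 on the T cell marker scale), and in CD69-activated cells none rose and 3 fell.

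**Figure D5:**
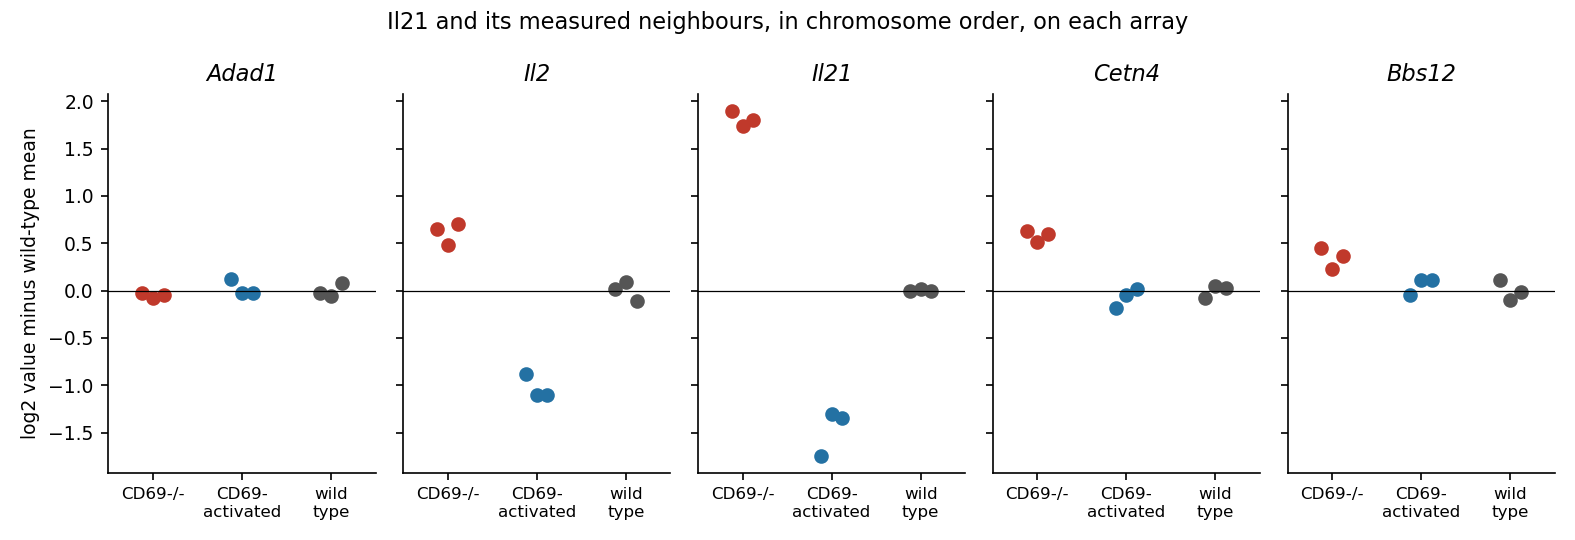
Log2 value minus the wild-type mean on each array for Il21 and the measured genes on either side of it, in their order on chromosome 3. Il2 and Il21 are above wild type in CD69-/- arrays and below it in CD69-activated arrays, Cetn4 and Bbs12 are above it in CD69-/- arrays, and Adad1 stays near 0. Values are as deposited, and the T cell marker scale is not drawn.

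The genes whose centred values lay nearest to those of Il21 over the 9 arrays were Gzmb, encoding granzyme B (root mean square difference 0.37 log2), Rgs16, a regulator of G protein signalling (0.57), and Havcr2, encoding TIM-3 (0.60). Each differed less between the outer groups than Il21, whose group means spanned 3.28. Gzmb was at 1.01 in CD69-/- cells and -1.56 in CD69-activated cells. Icos lay nearest to Cd5 (0.028), itself one of the T cell markers, Cd27, a costimulatory receptor (0.033), and Itgae, the integrin chain CD103 (0.037). Sh2d1a lay nearest to Galm, Wdfy1 and Znrf3 (0.055, 0.056 and 0.068), and Batf to Gstt2, Meis3 and Tes (0.042, 0.043 and 0.045). These distances are descriptions over arrays that share 3 groups.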

How the data were processed

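RNA of 9 samples was hybridised to 1-colour Affymetrix mouse gene arrays. The deposited log2 values are RMA values made by the authors. The submitters' processing notes name oligo and R 2.12.1, with settings not given in the sources used here. RMA summarizes probes by median polish and compresses large folds. Array medians over 35556 probe sets were 7.40 to 7.56, and arrays correlated at 0.996 to 0.998 within groups and 0.984 to 0.996 between them. A platform annotation gave 21789 probe sets 1 symbol, 1621 several and 12146 none, and 21698 matched RefSeq by gene ID. The brightest probe set stood for each of 19938 genes.

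The means of the 3 groups were fitted over all arrays with limma 3.58.1 in R 4.3.3 (lmFit and eBayes, no trend; residual df 6, prior df 4.78), two-sided, with Benjamini-Hochberg adjustment over all genes and calls at an adjusted p under 0.05. The procedure was tested on simulated data. Members and lists were chosen with earlier results of these data known. Named from each list were up to 4 called genes with the largest difference from wild type, plus Il21r, Prdm1, Icosl, Il2 and Irf4, the genes beside Il21, the 3 nearest in pattern (for members spanning at least 0.5 log2), and Cd69, Xist and Eif2s3y. Cd3e, Cd4 and Ms4a1 were chosen after their values were seen. Alternatives changed the scaling, filter, probe set rule, arrays and variance model.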

Additional observations from a re-analysis of the deposited data

How the results depend on the processing

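Of 438 recomputed differences of the 7 genes, 408 kept their direction and their side of the threshold, 21 lost the call, 2 gained it and 7 changed sign. All Il21 differences held in direction and call under every alternative run. For the other named genes 2059 of 2264 held, 151 lost the call, 14 gained it and 40 changed sign, and 141 of 1260 counts of called genes over the companion lists moved by over 1.5 times, 50 of them at the 1.5-fold minimum and 37 when arrays were centred on T cell markers.

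In CD69-/- against wild type the 5 higher members became 2 with T cell marker centring and 1 at the 1.5-fold minimum. The 1 lower member became 3 with T cell marker centring, 0 with all probe sets tested and 0 at the 1.5-fold minimum, and was 0 to 1 when single arrays were left out. In CD69-activated against wild type the 3 lower members became 1 at the 1.5-fold minimum. They became 2 without wild-type replicate 1 or without CD69-activated replicate 1. The count of higher members was 0 to 1 when single arrays were left out. Between CD69-activated and CD69-/- cells T cell marker centring gave 2 higher and 2 lower members in place of none and 6, and the 1.5-fold minimum gave 2 lower.

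Sign changes under T cell marker centring followed from its construction, since it takes the shift of those markers off every gene. In CD69-/- against wild type they were Maf -0.15, Batf -0.021, Bbs12 -0.094, Il21r -0.32, Prdm1 -0.18, Cd200 -0.40, Egr2 -0.25, Tox -0.13, Il2ra -0.13, Gata3 -0.036, Il6ra -0.040, Prkcq -0.051, Slamf1 -0.40, Fyn -0.16, Fosl1 -0.22, Atf3 -0.43, Bach1 -0.44, Mafg -0.39, Meis3 -0.027 and Tes -0.045. Between CD69-activated and CD69-/- cells they were Bcl6 0.41, Cxcr5 0.23, Maf 0.11 and Sh2d1a 0.071. Between CD69-activated and wild-type cells it was Icosl at 0.0046.

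The other sign changes were of differences near 0, and the cause was not tested. Socs1 in CD69-/- cells was at 0.030 with medians centred and -0.035 to 0.024 without single arrays. Atf3 there was at -0.027 with cyclic loess and -0.017 to 0.056 without single arrays. Bach1 there was at -0.034 with loess, -0.0020 with array weights and -0.033 to 0.033 without single arrays. With loess Adad1 was at -0.017 and Icosl at 0.017 in CD69-activated cells, and Bcl6 was at 0.021 between CD69-activated and CD69-/- cells. Without single arrays, CD69-activated against wild type ran from -0.026 to 0.064 for Adad1, -0.036 to 0.047 for Cd28 and -0.0054 to 0.074 for Itgae.

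Counts over all genes moved more. In CD69-/- against wild type 1667 higher genes became 2555 with medians centred, 102 with T cell marker centring, 81 at 1.5-fold and 1092 without wild-type replicate 3, and 1351 lower became 19458 with T cell marker centring and 149 at 1.5-fold. In CD69-activated against wild type 2015 higher became 3855 with all probe sets and 56 at 1.5-fold, and 2727 lower became 260 at 1.5-fold. Between CD69-activated and CD69-/- cells 4314 higher became 18359 with T cell marker centring, 7414 with all probe sets and 275 at 1.5-fold, and 4187 lower became 509 and 526 with T cell marker centring and at 1.5-fold.

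The shared replicate numbers showed no clear pairing, but 3 arrays per group are too few to exclude one. Deviations of same-numbered arrays correlated at -0.027 to 0.14 between CD69-/- and wild type and -0.24 to -0.0076 between CD69-activated and wild type. Between CD69-activated and CD69-/- they correlated at -0.049 to 0.0010. In these comparisons 3, 0 and 0 of 6 arrays correlated best with their own number. With the replicate block, Il21 was at 1.81, -1.46 and -3.28, no call of the 7 genes changed, and over all genes 1426 were higher and 1183 lower in CD69-/- cells, 1818 and 2527 in CD69-activated cells, and 4048 and 4007 between CD69-activated and CD69-/- cells. The files give no detection calls, so signal over background was not examined.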
